A study of Mus musculus with 18 samples.

Results

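The 9 genes described here control how the liver makes and breaks down glucose, and were listed by name for their roles, with earlier results of these data known. They are G6pc, Slc37a4, Pck1, Pcx and Fbp1 of glucose production, and Gckr, Pklr, Pfkfb1 and Slc2a2 of glucose uptake and glycolysis. All 9 were found among the 25266 genes listed for each liver, and all 9 passed the filter on low values that left 11090 genes for testing. RNA-seq was performed on livers of 18 male C57BL/6 mice in 4 groups. FF mice carried floxed Ppp6r3 alleles, the gene of the protein phosphatase 6 regulatory subunit SAPS3, with no Cre. LKO mice carried the same floxed alleles and Alb-Cre, in which the albumin promoter drives Cre in hepatocytes, so that other liver cells keep Ppp6r3. For 16 weeks, starting at 8 weeks of age, the mice ate a control diet with 10 kcal% fat (CD) or a diet with 32.5 kcal% fat (HFD), giving 4 FF CD, 4 LKO CD, 5 FF HFD and 5 LKO HFD livers. Food was freely available during the study, and the feeding state and hour at which these livers were taken are not given in the sources used here. The study's methods give a short fast ahead of blood collection by heart puncture, without saying whether livers for RNA-seq came from that occasion.

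In gluconeogenesis, pyruvate is carboxylated by pyruvate carboxylase (Pcx) and passed to phosphoenolpyruvate by the cytosolic carboxykinase Pck1. Fructose-1,6-bisphosphatase (Fbp1) then works against phosphofructokinase, and in the endoplasmic reticulum the catalytic subunit G6pc, fed by the glucose-6-phosphate transporter Slc37a4, releases free glucose. In the other direction glucose enters through GLUT2 (Slc2a2), is phosphorylated under the control of the regulatory protein Gckr, and leaves glycolysis through liver pyruvate kinase (Pklr), with the bifunctional enzyme Pfkfb1 setting the level of fructose 2,6-bisphosphate. Insulin is known to lower transcription of G6pc and Pck1 through the forkhead factor FoxO1, glucagon to raise it through cyclic AMP response elements, and glucose to raise transcription of Pklr through the factor ChREBP (Mlxipl).

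The promoters of G6pc, Pck1 and Pklr are shown because those elements are known in them and because G6pc and Pklr carry most of the differences below. Each window runs from 250 bases before to 50 bases after a RefSeq start site on GRCm38.p6, and capitals mark the matches found by a search of both strands for letters chosen after the sequences had been read. The forkhead letters were TGTTTTG and TGTTTTTG, the cyclic AMP letters were ACGTCA and TTACGTAA, and the carbohydrate response letters were CACG and CGTG with any 9 bases between them.
G6pc, chr11:101367466-101367765, plus strand: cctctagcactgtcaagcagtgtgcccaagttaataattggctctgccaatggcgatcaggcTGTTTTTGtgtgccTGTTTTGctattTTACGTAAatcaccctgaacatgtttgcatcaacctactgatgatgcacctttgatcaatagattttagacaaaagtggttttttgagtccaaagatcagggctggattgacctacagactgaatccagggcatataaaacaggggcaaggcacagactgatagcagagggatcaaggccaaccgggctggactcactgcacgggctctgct
Pck1, chr2:173152823-173153122, plus strand: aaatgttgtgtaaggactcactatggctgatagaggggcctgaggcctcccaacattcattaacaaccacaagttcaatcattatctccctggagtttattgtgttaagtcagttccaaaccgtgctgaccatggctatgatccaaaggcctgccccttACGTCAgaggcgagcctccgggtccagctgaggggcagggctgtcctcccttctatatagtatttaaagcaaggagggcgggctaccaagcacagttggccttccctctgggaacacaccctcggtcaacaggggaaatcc
Pklr, chr3:89136373-89136672, plus strand, the downstream of 2 start sites: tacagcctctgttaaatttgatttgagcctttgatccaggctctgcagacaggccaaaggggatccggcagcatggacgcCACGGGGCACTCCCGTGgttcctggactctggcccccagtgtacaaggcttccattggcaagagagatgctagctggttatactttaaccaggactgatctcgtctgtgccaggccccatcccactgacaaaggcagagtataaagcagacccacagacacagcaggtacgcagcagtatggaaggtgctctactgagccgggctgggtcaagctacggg
Both forkhead matches of G6pc lie ahead of its cyclic AMP match, with TGTTTTTG beginning at -188, TGTTTTG at -174 and TTACGTAA at -162 from the start site. The Pck1 window holds ACGTCA beginning at -91 and neither forkhead letter string. Bases outside the windows were not searched, so a missing match does not show that a promoter lacks the element. The Pklr window holds 1 carbohydrate response match, beginning at -170. Of 32851 promoter windows searched, 6.28% hold TGTTTTG, 1.54% hold TGTTTTTG, 7.51% hold ACGTCA, 0.119% hold TTACGTAA and 0.280% hold the carbohydrate response letters. Since the letters were chosen after these sequences had been read, the shares do not measure how unexpected the matches are. A match describes letters and does not show that a factor is bound.

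Levels were the deposited RPKM values, reads scaled by transcript length and by library depth, so levels can be compared between genes per length. Depth recovered from the steps between low values was 23.4 M to 37.0 M reads per liver. G6pc received at least 2050 reads in every liver, and the fewest for any of the 9 genes were 438 for Pfkfb1, where counting error alone is 4.78%. Ppp6r3, the deleted gene, was 8.38 to 10.98 RPKM in FF CD, 3.88 to 4.08 in LKO CD, 7.55 to 8.82 in FF HFD and 4.22 to 4.87 in LKO HFD, so every LKO liver lay below every FF liver. Albumin was 21308 RPKM or more in every liver, and all 4 kidney tubule markers were at or near 0. FF CD mouse 4 was the lowest of its group for 8 of the 9 genes and FF HFD mouse 3 for 7 of 9, and each also had the lowest summed RPKM over all genes in its group (338566 and 312292). Results that rest on these livers are therefore given with and without them. With RPKM rescaled to one sum the 9 genes had the same calls by fold and adjusted p, while adjusted p alone changed sides for G6pc and Pcx as given below and for Slc2a2.

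Over all livers Pck1 had the highest mean level at 768 RPKM, followed by Fbp1 at 582, Pklr at 181, G6pc at 142, Slc2a2 at 105, Pcx at 90.1, Gckr at 53.0, Slc37a4 at 42.5 and Pfkfb1 at 14.2. Pck1 ranked 57th and Fbp1 77th among all listed genes. No liver had a Pklr level within the range of Fbp1, or a Pfkfb1 level within that of Slc37a4, while the other neighbours in this order overlapped over the 18 livers. The rank that moved most with group was that of G6pc, which was 3 or 4 among the 9 genes in each FF liver, 4 or 5 in each LKO CD liver and 6 or 7 in each LKO HFD liver.

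**Figure D1:**
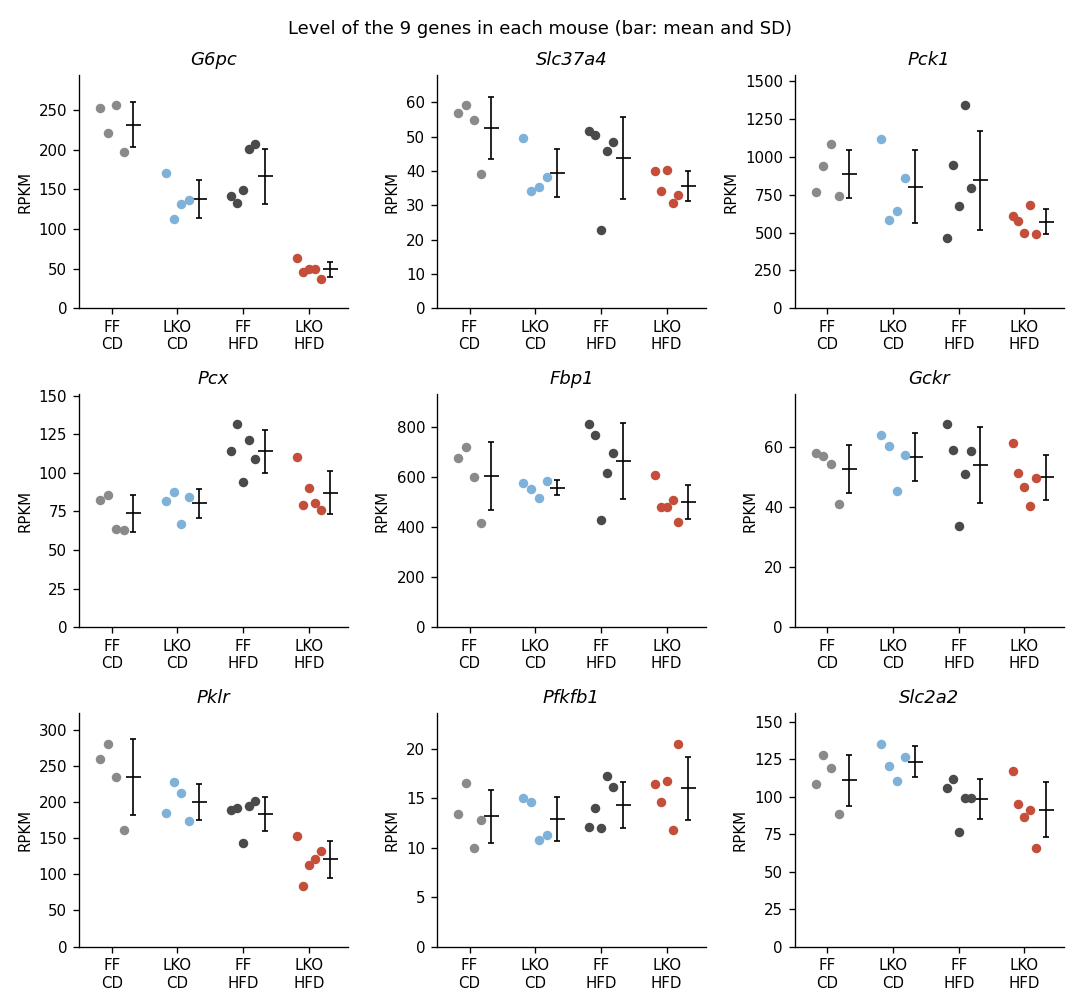
RPKM of the 9 genes (vertical axes, each from 0) in each of the 18 livers, with a point per mouse and the mean and SD of each group beside the points (n = 4 or 5). The 5 LKO HFD livers lie between 37.1 and 63.2 RPKM for G6pc, below all other livers, while most other panels show overlapping groups.

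G6pc (chr11:101367561-101377903, plus strand, 5 exons) fell in LKO livers on HFD and was the member with the largest difference in that comparison. Its level was 253, 221, 256 and 197 RPKM in the 4 FF CD livers and 170, 113, 132 and 136 in the 4 LKO CD livers. It was 141, 133, 149, 201 and 207 RPKM in the 5 FF HFD livers and 63.2, 45.9, 48.9, 49.1 and 37.1 in the 5 LKO HFD livers. The LKO HFD livers lay below every other liver, and how many genes do so was not counted. Between a single pair of groups, a lack of overlap in either direction was found for 4.67% of tested genes between genotypes on HFD. With the diet in LKO livers it was found for 9.04%. The LKO CD and FF CD livers did not overlap, and FF HFD overlapped both of those groups. In order, the group means were 232 ± 28.3 (SD, n = 4) in FF CD, 166 ± 35.0 (SD, n = 5) in FF HFD, 138 ± 23.95 (SD, n = 4) in LKO CD and 48.8 ± 9.39 (SD, n = 5) in LKO HFD.

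On HFD the mean of G6pc in LKO livers was 0.294 times that in FF livers, a log2 difference of -1.74 on the log2(RPKM + 1) scale (SE 0.15, 95% confidence interval -2.06 to -1.42, limma adjusted p = 3.06e-06). In this comparison 2 of the 9 genes, G6pc and Pklr, passed a fold change above 1.5 with adjusted p under 0.05, against 2.07% of the 11090 tested genes. With the diet in LKO livers, G6pc fell by 64.6% in mean RPKM (log2 difference -1.48, SE 0.16, adjusted p = 0.000374). The same 2 genes passed there, against 1.27% of tested genes. Both calls of G6pc held without any 1 mouse, with adjusted p of at most 2.38e-05 between genotypes on HFD and at most 0.00321 with the diet in LKO livers. In bulk liver, fewer cells of a type and less RNA per cell cannot be told apart.

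The diet response of G6pc differed between the genotypes. In FF livers its log2 difference with HFD was -0.49 (SE 0.16, adjusted p = 0.0383), which is under the fold limit, and the groups overlapped. Adjusted p alone was passed by 2 of the 9 genes there, G6pc and Pcx, and by 20.6% of tested genes. The adjusted p of G6pc was above the threshold, at 0.0616 to 0.114, when FF CD mouse 1, 2 or 3 or FF HFD mouse 1, 2 or 3 was left out, and at 0.0507 to 0.0777 in 5 of 9 other settings. The response in LKO livers minus that in FF livers was -0.99 (SE 0.23, 95% confidence interval -1.47 to -0.51, adjusted p = 0.0256), and G6pc was the only 1 of the 9 genes to pass, against 2.44% of tested genes. The adjusted p was 0.0549 without LKO CD mouse 4, 0.0484 without FF CD mouse 4 and 0.0298 without FF HFD mouse 3. The 2 genotype comparisons and the 2 diet comparisons draw on the same 4 groups and are not independent.

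On CD, no member passed between LKO and FF livers in limma, against 0.225% of tested genes, and 1 member, G6pc, had an unadjusted p under 0.05, as had 7.67% of tested genes. Its mean in LKO CD livers was 0.595 times that of FF CD livers, a log2 difference of -0.75 (SE 0.17, 95% confidence interval -1.11 to -0.39, adjusted p = 0.0824). The groups did not overlap, as was so for 5.07% of tested genes. With RPKM rescaled to one sum the adjusted p was 0.0580.

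Slc37a4 (chr9:44396852-44402968, plus strand), which carries the substrate of G6pc into the endoplasmic reticulum, did not pass in any comparison. Its level was 52.5 ± 9.05 RPKM (SD, n = 4) in FF CD, 39.4 ± 7.05 (SD, n = 4) in LKO CD, 43.8 ± 12.0 (SD, n = 5) in FF HFD and 35.6 ± 4.32 (SD, n = 5) in LKO HFD. FF HFD mouse 3 held 22.8 RPKM while the other FF HFD livers held 45.7 to 51.8. The log2 difference between genotypes on HFD was -0.24 (adjusted p = 0.499), and -0.46 without that mouse. Its diet response in LKO minus that in FF was 0.16, and -0.05 without that mouse.

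Pck1 (chr2:173153048-173159273, plus strand) was the most variable of the 9 genes in FF HFD livers. Its level was 771, 938, 1085 and 744 RPKM in FF CD and 1118, 584, 645 and 858 in LKO CD. It was 465, 949, 672, 1341 and 792 RPKM in FF HFD and 610, 579, 497, 682 and 490 in LKO HFD. The FF HFD livers spanned the range of all other livers, and the LKO HFD livers were close together in the lower part of it. The groups of each of the 4 pairwise comparisons overlapped. The log2 difference between genotypes on HFD was -0.48 (SE 0.23, 95% confidence interval -0.96 to -0.0036, adjusted p = 0.255). With the diet it was -0.14 in FF livers and -0.45 in LKO livers (adjusted p = 0.732 and 0.286). The difference between G6pc and Pck1 was not tested.

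Pcx (chr19:4510472-4621752, plus strand), the enzyme that supplies oxaloacetate, rose with HFD in FF livers. Its level was 82.6, 85.9, 63.7 and 63.1 RPKM in FF CD and 81.9, 87.5, 66.9 and 84.4 in LKO CD. It was 114, 131, 94.3, 121 and 109 RPKM in FF HFD and 110, 79.3, 89.9, 80.4 and 75.8 in LKO HFD. All FF HFD livers lay above all FF CD livers, where 18.3% of tested genes did not overlap, and in LKO HFD only mouse 1 reached the level of the FF HFD group.

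The mean of Pcx in FF HFD livers was 1.54 times that in FF CD livers (log2 difference 0.62, SE 0.13, adjusted p = 0.00291). It was the 1 member of 9 called in that comparison, against 6.6% of tested genes. The difference lay close to the fold limit, and fell below it when FF CD mouse 3 (0.56), FF CD mouse 4 (0.55) or FF HFD mouse 2 (0.57) was left out, with adjusted p of at most 0.0157. Without FF HFD mouse 3 it was 0.69. In LKO livers the diet difference was 0.11 (adjusted p = 0.658), and the response in LKO minus that in FF was -0.51 (95% confidence interval -0.90 to -0.12, adjusted p = 0.164). On HFD the genotype difference was -0.39 (adjusted p = 0.0861). With RPKM rescaled to one sum these were -0.58 (adjusted p = 0.0255) and -0.45 (adjusted p = 0.0116), still under the fold limit.

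Fbp1 (chr13:62864753-62888282, minus strand) did not pass in any comparison. It measured 605 ± 135 RPKM (SD, n = 4) in FF CD, 558 ± 30.2 (SD, n = 4) in LKO CD, 665 ± 151 (SD, n = 5) in FF HFD and 502 ± 69.8 (SD, n = 5) in LKO HFD. Its lowest values in the FF groups were those of FF CD mouse 4 at 417 and FF HFD mouse 3 at 429, and LKO HFD spanned 420 to 611. The log2 difference between genotypes on HFD was -0.38 (SE 0.17, adjusted p = 0.217), and -0.53 without FF HFD mouse 3.

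**Figure D2:**
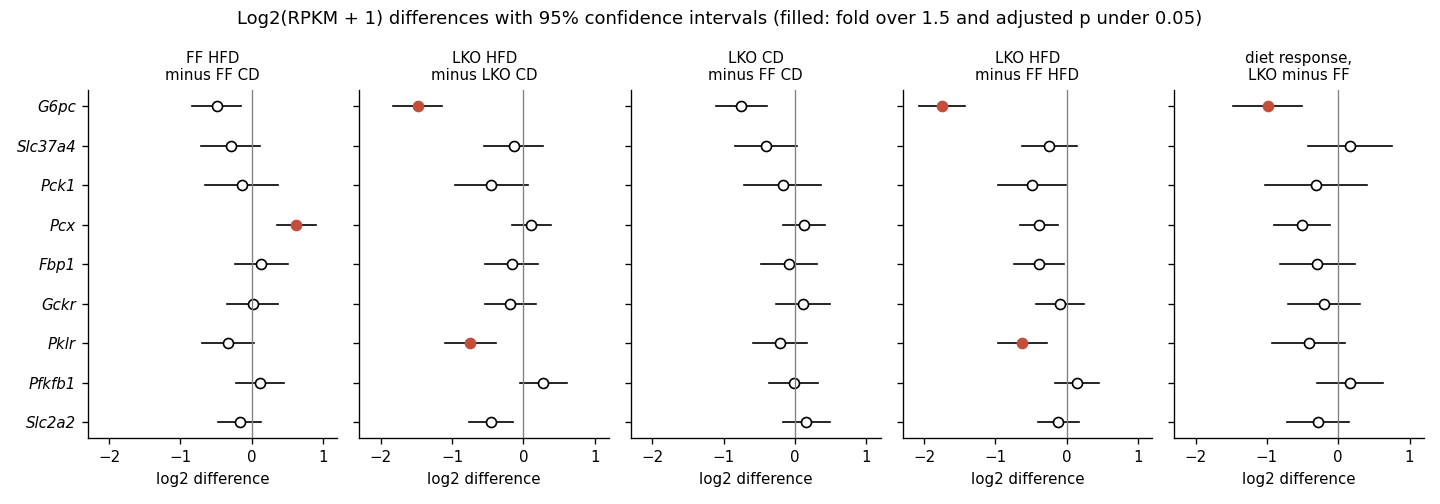
Log2(RPKM + 1) differences of the 9 genes (horizontal axes) with 95% confidence intervals from limma, in a panel per comparison, with filled points where the fold exceeded 1.5 and the adjusted p was under 0.05. G6pc is filled in both HFD comparisons that involve LKO livers and in the difference of diet responses, Pklr in the first pair, and Pcx only with the diet in FF livers.

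Among the genes of uptake and glycolysis, Pklr (chr3:89136142-89146784, plus strand) was lower in LKO HFD livers. Its level was 261, 281, 236 and 162 RPKM in FF CD and 185, 228, 212 and 174 in LKO CD. It was 190, 192, 143, 194 and 202 RPKM in FF HFD and 153, 83.3, 113, 122 and 132 in LKO HFD. LKO HFD livers lay below all LKO CD livers, where 9.04% of tested genes did not overlap, while LKO HFD mouse 1 lay above FF HFD mouse 3.

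The log2 difference of Pklr was -0.62 between genotypes on HFD (SE 0.16, adjusted p = 0.0398) and -0.74 with the diet in LKO livers (SE 0.17, adjusted p = 0.0285). Both calls were close to the threshold. Between genotypes on HFD the adjusted p was 0.0561, 0.0922, 0.0825 and 0.0920 without FF HFD mouse 1, 2, 4 or 5, and 0.0830, 0.0958 and 0.0700 without LKO HFD mouse 2, 3 or 4. With the diet it was 0.0786, 0.0612 and 0.0870 without LKO CD mouse 1, 2 or 3, and 0.0828 without LKO HFD mouse 3. Without FF HFD mouse 3 the HFD genotype difference was -0.71 (adjusted p = 0.0281). The diet difference in FF livers was -0.33 (adjusted p = 0.190), and -0.50 without FF CD mouse 4 (adjusted p = 0.0401). The difference of the diet responses of Pklr was -0.41 (adjusted p = 0.426), -0.24 without FF CD mouse 4 and -0.50 without FF HFD mouse 3. The last 711 bases of Pklr overlap Hcn3 on the other strand, and the counting is not stated to use strand.

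Gckr (chr5:31297443-31327314, plus strand), the gene of a regulatory protein of glucose phosphorylation, had close means in all groups. It measured 52.5 ± 7.91 RPKM (SD, n = 4) in FF CD, 56.6 ± 7.96 (SD, n = 4) in LKO CD, 53.9 ± 12.7 (SD, n = 5) in FF HFD and 49.8 ± 7.59 (SD, n = 5) in LKO HFD. The 4 pairwise log2 differences lay between -0.18 and 0.11, and all groups overlapped. FF HFD mouse 3 held 33.6 RPKM, the lowest of its group. Without it the log2 difference between genotypes on HFD went from -0.09 to -0.25 (adjusted p = 0.348). The diet difference in FF livers was 0.01, 0.17 without that mouse and -0.10 without FF CD mouse 4 (adjusted p = 0.412 and 0.738 without them).

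Slc2a2 (chr3:28697903-28731359, plus strand) measured 111 ± 17.1 RPKM (SD, n = 4) in FF CD, 123 ± 10.4 (SD, n = 4) in LKO CD, 98.4 ± 13.4 (SD, n = 5) in FF HFD and 91.5 ± 18.4 (SD, n = 5) in LKO HFD. Its largest difference was -0.45 with the diet in LKO livers (SE 0.15, adjusted p = 0.0866, and 0.0366 rescaled to one sum), where LKO HFD mouse 1 at 117 RPKM overlapped LKO CD livers of 111 to 136. Pfkfb1 (chrX:150588229-150643878, plus strand) measured 13.2 ± 2.69 RPKM (SD, n = 4) in FF CD, 13.0 ± 2.22 (SD, n = 4) in LKO CD, 14.3 ± 2.35 (SD, n = 5) in FF HFD and 16.0 ± 3.20 (SD, n = 5) in LKO HFD. It was the only member with a higher mean in LKO than in FF livers on HFD, with a log2 difference of 0.15 (adjusted p = 0.619). Neither gene passed in any comparison.

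Over the 9 genes the median log2 difference was -0.38 between genotypes on HFD, against 0.03 over all tested genes, and 8 of 9 values were below 0 where 42.6% of all tested genes were. It was -0.18 against 0.07 with the diet in LKO livers and -0.14 against 0.07 with the diet in FF livers. On CD it was -0.09 between genotypes, against 0.03.

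Opposing enzymes were set beside each other as ratios of RPKM within each liver, as a description. Pcx over Pklr had a median of 0.311 in FF CD, 0.413 in LKO CD, 0.625 in FF HFD and 0.718 in LKO HFD, and no HFD liver of either genotype was below 0.539 while no CD liver was above 0.485. This ratio restates the Pcx and Pklr levels given above and is no separate result. How many other gene pairs part the diets in this way was not counted. Pck1 over Pklr had medians of 3.97, 3.99, 4.71 and 4.38 in FF CD, LKO CD, FF HFD and LKO HFD, with overlap of all groups. Fbp1 over Pfkl, the phosphofructokinase of liver, had medians of 124, 109, 114 and 98.2 in the same order.

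**Figure D3:**
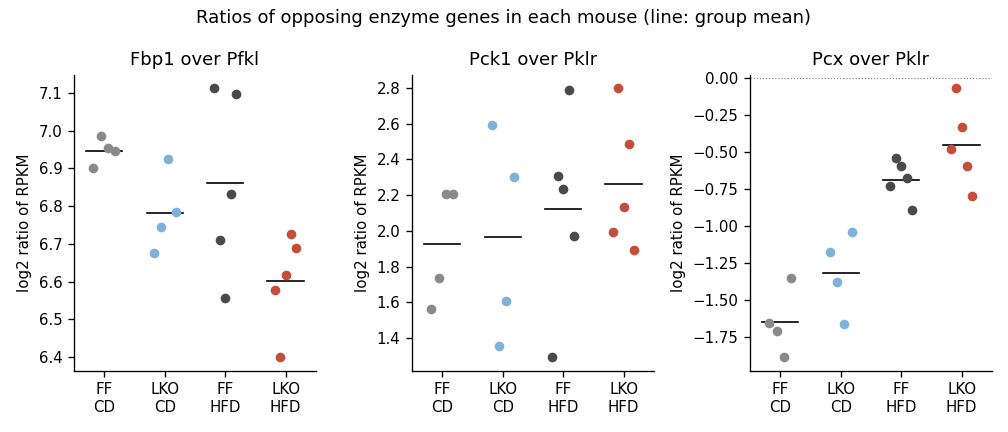
Log2 ratios of RPKM (vertical axes) for 3 pairs of opposing enzyme genes, with a point per mouse and a line at each group mean (n = 4 or 5). Pcx over Pklr is below 0 in all 18 livers and higher in every HFD liver than in every CD liver, with group medians of the ratio from 0.311 to 0.718.

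Of 25 other enzymes of glycolysis and gluconeogenesis, 21 were tested. Between genotypes on HFD 1 fell and none rose, where 2.07% of all tested genes were called. The median log2 difference was -0.13, against 0.03 over all tested genes. The gene that fell was Gpi1, which interconverts glucose and fructose 6-phosphates (log2 difference -0.64, SE 0.12, adjusted p = 0.00497). It was 71.9 to 96.9 RPKM in FF HFD and 49.5 to 63.1 in LKO HFD, without overlap, as for 4.67% of tested genes. With the diet in FF livers Pkm, the pyruvate kinase of most other tissues, rose (0.85, adjusted p = 0.0016) and Pfkfb3, an inducible relative of Pfkfb1, fell (-1.09, adjusted p = 0.000803). Pfkfb3 also fell with the diet in LKO livers (-0.78, adjusted p = 0.0343), from 2.73 to 5.03 RPKM on CD to 1.34 to 2.101 on HFD. Pfkl was 3.38 to 7.35 RPKM over all groups and passed nowhere. Hk1 and Hk2, hexokinases of other tissues, were at low levels, of up to 1.01 RPKM for Hk1 and 1.28 for Hk2. With the diet in FF livers the mean of Hk1 went from 0.481 to 0.846 RPKM without overlap, as for 18.3% of tested genes. Its log2 difference was 0.32 (limma adjusted p = 0.00783), under the fold limit on the log2(RPKM + 1) scale. By adjusted p alone 20.6% of tested genes passed there.

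All 15 glycogen metabolism genes were tested, and 2 fell between genotypes on HFD, 2 changed with the diet in FF livers and 1 fell with the diet in LKO livers. Over all tested genes 2.07%, 6.6% and 1.27% were called in these comparisons. The median log2 difference between genotypes on HFD was -0.18, against 0.03 over all tested genes. Ugp2, which makes UDP-glucose, was 207 to 235 RPKM in FF HFD and 114 to 160 in LKO HFD (log2 difference -0.72, SE 0.11, adjusted p = 0.000983). Ppp1r3g, a glycogen-targeting subunit of protein phosphatase 1, was at low levels, 1.48 to 3.68 RPKM in FF HFD and 0.180 to 1.19 in LKO HFD (-1.24, adjusted p = 0.00457). It rose with the diet in FF livers (0.72, adjusted p = 0.0399) and fell in LKO livers (-1.20, adjusted p = 0.0197). Ppp1r3b, a related subunit, fell with the diet in FF livers (-0.72, adjusted p = 0.0467).

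Of the 14 genes of pyruvate entry and oxidation, 12 were tested, 3 rose with the diet in FF livers and none fell, and in LKO livers limma called none. Over all tested genes 6.6% were called with the diet in FF livers and 1.27% in LKO livers. At an unadjusted p under 0.05 there were 5 of 12 in LKO livers, against 22.3% of all tested genes, and 7 of 12 in FF livers, against 33.7%. Between genotypes on HFD there were 5, against 19.3%. The median log2 difference with the diet was 0.23 in FF and -0.14 in LKO livers, against 0.07 over all tested genes in each. Pdk4, the kinase that switches off pyruvate dehydrogenase, went from 0.938 ± 0.342 RPKM (SD, n = 4) in FF CD to 5.62 ± 2.01 (SD, n = 5) in FF HFD (log2 difference 1.73, adjusted p = 0.0001). The monocarboxylate transporter Slc16a7 (1.17, adjusted p = 7.68e-06) and the mitochondrial pyruvate carrier subunit Mpc1 (0.72, adjusted p = 0.000549) also rose. On CD, Slc16a7 was 7.22 to 10.3 RPKM in LKO and 4.06 to 5.12 in FF livers (0.87, adjusted p = 0.00559). On HFD it was lower in LKO livers, at 6.34 to 7.72 RPKM against 8.41 to 14.1 in FF (-0.61, adjusted p = 0.00623), and fell under the fold limit without FF HFD mouse 2, FF HFD mouse 3 or LKO HFD mouse 4. The diet responses of these 3 genes in LKO minus FF were -1.39 for Pdk4, -1.48 for Slc16a7 and -0.95 for Mpc1, with adjusted p of 0.0299, 0.000146 and 0.00455. Over all tested genes 2.44% were called in that comparison, and these 3 genes were named for their large called changes.

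Among 15 genes of substrate supply, all tested, Sds and Got1, which feed amino acid carbon into gluconeogenesis, fell with the diet in LKO livers. These were the 2 genes of the list called there, against 1.27% of all tested genes. In FF livers their log2 differences were -0.38 for Sds and -0.58 for Got1 (adjusted p = 0.334 and 0.107). The groups did not overlap for Got1, as was so for 18.3% of tested genes. The diet responses in LKO minus FF did not pass (adjusted p = 0.363 and 0.572). The median log2 difference of the list in LKO livers was -0.13, against 0.07. Sds went from 105 ± 19.4 RPKM (SD, n = 4) to 51.0 ± 20.4 (SD, n = 5), with a log2 difference of -1.09 (adjusted p = 0.0337). Got1 went from 101 ± 12.6 (SD, n = 4) to 52.8 ± 22.9 (SD, n = 5), with a difference of -1.02 (adjusted p = 0.0343). Glycerol kinase (Gk) rose with the diet in FF livers (0.80, adjusted p = 0.000829) and had a difference of 0.01 in LKO livers. Khk, the fructokinase, fell between genotypes on HFD (-0.67, adjusted p = 0.0308). It is named because it was the 1 gene of the list called there, where 2.07% of all tested genes were.

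Of 30 transcription and hormone response genes, all tested, 1 rose and 2 fell with the diet in FF livers, and 1 fell between genotypes on HFD, with medians of -0.02 and 0.01 against 0.07 and 0.03 over all tested genes. Over all tested genes 6.6% and 2.07% were called in these comparisons. Igfbp1, a FoxO1 and fasting target, was 6.54 to 11.7 RPKM in FF CD, 8.19 to 35.2 in FF HFD and 6.99 to 12.6 in LKO HFD. Its log2 difference was 1.08 with the diet in FF livers (adjusted p = 0.0151) and -1.02 between genotypes on HFD (adjusted p = 0.0460). Mlxipl, the ChREBP gene, fell with the diet in FF livers (-0.67, adjusted p = 0.00366), and in LKO livers its difference was 0.15 (adjusted p = 0.580). Between genotypes on HFD it was higher in LKO livers, by 0.52 (adjusted p = 0.0401), under the fold limit. Srebf1, a lipogenic factor induced by insulin, fell with the diet in FF livers (-0.94, adjusted p = 0.0369) and had a difference of -1.04 in LKO livers (adjusted p = 0.0633).

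Fasting and feeding response genes bear on the feeding state at collection. Of 14 tested, 8 rose and 4 fell with the diet in FF livers, 1 rose and 2 fell in LKO livers, and 2 fell between genotypes on HFD, Igfbp1 and the malic enzyme gene Me1. Over all tested genes 6.6%, 1.27% and 2.07% were called in these comparisons. The median log2 difference of the list was 0.71 with the diet in FF livers and -0.57 between genotypes on HFD, against 0.07 and 0.03. Lpin1, a phosphatidate phosphatase, fell with the diet in both genotypes (-0.88 in FF, adjusted p = 0.0377, and -1.24 in LKO, adjusted p = 0.0285). Cyp4a14, a target of the fatty acid receptor PPARα, was 2.19 to 12.1 RPKM in FF CD and 51.9 to 213 in LKO CD (4.43, adjusted p = 0.000874). The part of feeding state in the G6pc result was not tested.

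With each of the 18 mice left out in turn, Gpi1, Ugp2 and Ppp1r3g kept their calls between genotypes on HFD, and Slc16a7 and Cyp4a14 theirs on CD. Igfbp1 lost its call between genotypes on HFD 15 times, and Khk and Me1 theirs 8 times each, with adjusted p of up to 0.118, 0.0830 and 0.103. The call of Ppp1r3g with the diet in LKO livers was lost 2 times, when mouse 1 of LKO CD or mouse 3 of LKO HFD was left out (up to 0.0682). Those of Sds, Got1, Pfkfb3 and Lpin1 were lost 5, 5, 6 and 4 times (up to 0.105, 0.106, 0.121 and 0.101). For the diet in FF livers the calls of Ppp1r3g, Ppp1r3b, Srebf1 and Lpin1 were lost 6, 10, 7 and 7 times (up to 0.122, 0.139, 0.120 and 0.0914), and Pkm, Pfkfb3, Pdk4, Slc16a7, Mpc1, Gk, Igfbp1 and Mlxipl kept theirs. The differences of diet responses of Slc16a7 and Mpc1 kept their calls, and that of Pdk4 was lost 8 times (up to 0.0828).

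Under 9 other settings (8 for the difference of diet responses), Gpi1, Ugp2, Ppp1r3g and Slc16a7 kept their calls between genotypes on HFD, and Slc16a7 and Cyp4a14 theirs on CD. Igfbp1 lost that on HFD 4 times, and Khk and Me1 theirs 3 times each (adjusted p up to 0.126, 0.0930 and 0.0767). In FF livers Ppp1r3g lost its call with the diet 6 times, Ppp1r3b and Lpin1 4 times, Srebf1 2 times, and Igfbp1 with only the compared groups in the fit (0.0547). Mlxipl fell under the fold limit there when rescaled to one sum, and Pkm, Pfkfb3, Pdk4, Slc16a7, Mpc1 and Gk kept theirs. In LKO livers Sds and Got1 lost theirs with the diet 3 times, Pfkfb3 and Lpin1 2 times and Ppp1r3g 1 time. The difference of diet responses was lost 3 times for Pdk4, 2 for Gk and 4 for Mlxipl (up to 0.0809, 0.0776 and 0.0791), and kept for Slc16a7, Mpc1, Ppp1r3g and Cyp4a14.

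**Figure D4:**
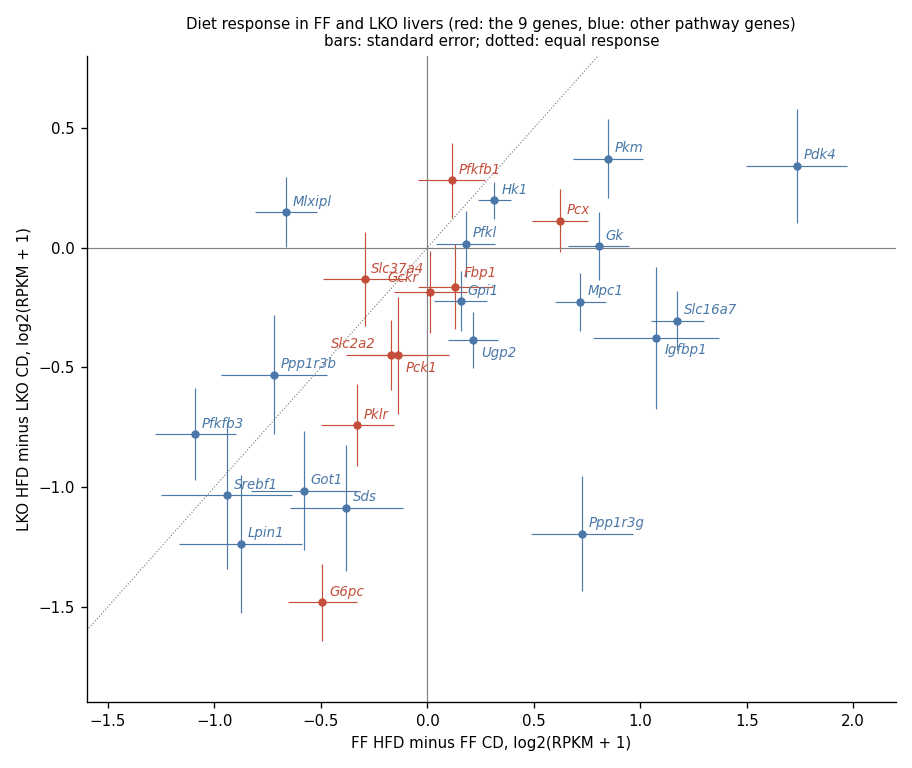
Log2(RPKM + 1) difference between HFD and CD in FF livers (horizontal axis) and in LKO livers (vertical axis), with standard errors, for the 9 genes in red and other named pathway genes in blue, Cyp4a14 left out for scale. G6pc is at -0.49 in FF and -1.48 in LKO livers, below the dotted line of equal response, and Ppp1r3g is at 0.72 and -1.20.

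Cell type markers were compared beside these results. The summed RPKM of 7 hepatocyte markers was 35601 to 45685 in FF HFD and 38943 to 46357 in LKO HFD, and that of 6 periportal markers was 1083 to 1448 and 950 to 1343. In FF livers 3 of the 7 hepatocyte and 1 of 6 pericentral markers fell with the diet, while 1 of 6 periportal, 4 of 6 sinusoidal endothelial, 2 of 6 Kupffer cell and macrophage and 2 of 6 stellate cell and fibroblast markers rose. Of all tested genes 6.6% were called there. In LKO livers, where G6pc and Pklr fell with the diet, 1 of 6 periportal markers, Sds, also fell, 1 of 6 Kupffer cell and macrophage markers rose and no hepatocyte marker was called in limma, against 1.27% of tested genes. At an unadjusted p under 0.05 there were 2 of 7 hepatocyte, 2 of 6 periportal and 1 of 6 pericentral markers, against 22.3% of tested genes. So were 5 of 6 Kupffer cell and macrophage, 4 of 6 sinusoidal endothelial and no stellate cell and fibroblast markers. The medians of these 3 lists were 0.52, 0.50 and -0.24, against 0.07. Between genotypes on HFD 1 of 7 hepatocyte markers rose and 2 of 6 stellate cell and fibroblast markers fell, against 2.07% of tested genes. The summed RPKM of the latter list was 74.2 to 114 in FF HFD and 51.3 to 102 in LKO HFD. At an unadjusted p under 0.05 there were 4 of 7 hepatocyte, 2 of 6 periportal and 3 of 6 pericentral markers, against 19.3% of tested genes. So were 4 of 6 sinusoidal endothelial (median -0.33), 3 of 6 stellate cell and fibroblast (median -0.35) and no Kupffer cell and macrophage markers. The part of cell composition in the results was not tested.

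The deviations of each gene from its group means were compared over the 18 livers with those of 9729 genes, as a description, since the points share libraries and depth. G6pc was most like Coq10b, Bmi1 and Cdkn2aip, with Pearson's r of 0.81, 0.78 and 0.74, and Pck1 ranked 59th at 0.58. Pck1 was most like Tnfrsf1b, Trp53inp1 and Foxo1 (0.85, 0.80 and 0.76). Pklr was most like its overlapping neighbour Hcn3 (0.94), then Gm35986 (0.86) and Pygl (0.80). Reads of Hcn3 in the bases it shares with Pklr cannot be told apart from those of Pklr without strand. Gckr was most like Uqcr10, Atp5l and Asgr1 (0.98, 0.97 and 0.97), and Slc37a4 most like Eif3m, Cript and Ndfip1 (each 0.92). Fbp1 was most like Acat3, Rpusd3 and Aadac (0.93, 0.92 and 0.92), and Pcx most like Vta1, Dlst and Tmem135 (0.94, 0.93 and 0.93). Slc2a2 was most like Pfkm, Sqor and Anxa6 (0.93, 0.93 and 0.91), and Pfkfb1 most like Smyd1, Dntt and Dhcr7 (0.85, 0.82 and 0.81).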

How the data were processed

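RNA was extracted from liver and sequenced. The labels name both an Illumina small RNA kit and a standard RNA-seq protocol. Per the labels, the authors aligned reads with HISAT2 2.0.4 to mm10 and quantified them in Partek, and deposited 1 table of RPKM values per mouse. The gene annotation and strand setting are not given in the sources used here. The filter on low values was a mean RPKM of 0.5 over the mice. Values were taken as log2(RPKM + 1), which understates changes of low genes, and limma 3.58.1 (R 4.3.3, eBayes with trend) was fitted to the 4 groups, two-sided, with Benjamini-Hochberg adjustment over all 11090 genes. A gene was called at a fold change above 1.5 and adjusted p under 0.05.

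The 9 genes, the pathway and marker lists and the tests were chosen with earlier results of these data known. Named besides the 9 genes were Ppp6r3, the up to 3 called genes of each pathway list with the largest change, 3 fixed enzymes, and the 3 genes most like each member. Khk, Me1 and Per2 fall outside this rule and were named after their values were seen. 2 listed genes are not reported here and were left out of the list counts. Tables were made with Python 3.11.15 and pandas 2.3.3. Depth was recovered from the steps between values under 0.3 RPKM, and reads of 6 members came out whole within 0.05. Intervals cover the spread between mice, each of which was 1 sample. No 2 of the 18 livers held identical values. Gene positions are from GENCODE on GRCm38 and promoters from RefSeq. The fit was tested on simulated data. Deviations of same-numbered mice correlated above 0.1 in 7 of 17 pairs, so numbers were not taken to pair mice. Alternatives were a pseudocount of 0.1, other filters, rescaled, quantile normalized or median-centred values, a fit of the compared groups alone, no moderation, adjusted p alone, a replicate block and leaving out each mouse.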

Additional observations from a re-analysis of the deposited data

Results flagged for a closer look

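Among the 9 genes and Ppp6r3, 2 of 40 groups held a liver far from the others of its group, where chance gives about 1 in 20. Both were FF HFD mouse 3, with Slc37a4 at 22.8 RPKM and Pklr at 143 RPKM.

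The diet response in LKO livers minus that in FF livers passed the test for G6pc at -0.99 on the log2 scale. Of the other named genes it passed for Ppp1r3g at -1.92, Pdk4 at -1.39, Slc16a7 at -1.48, Mpc1 at -0.95, Gk at -0.80, Mlxipl at 0.81 and Cyp4a14 at -5.26. Over all tested genes 2.44% passed. These other genes were named for large called changes in any comparison, this one included, so their passing is partly set by that choice. The mean of G6pc was lower with HFD in both genotypes. The LKO CD livers lay above all FF CD livers for Cyp4a14, Slc16a7, Pdk4 and Mpc1, where 5.07% of tested genes did not overlap. Of these genes Cyp4a14 and Slc16a7 passed the test on CD, and Pdk4 (adjusted p = 0.539) and Mpc1 (0.101) did not. The difference for Gk was lost in 11 of 18 cases when a single mouse was left out (adjusted p up to 0.0989), that for Mlxipl in 12 (up to 0.101) and that for Pdk4 in 8 (up to 0.0828).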

How the results depend on the processing

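Leaving out 1 mouse in turn kept the direction and call of 782 of 810 values of the 9 genes, and other settings those of 383 of 396. Many of these values could not change direction. A pairwise log2 difference stays the same without a mouse of a group not compared. It also stays the same with other filters, no moderation or only the compared groups in the fit. Most values were not called as reported, so these counts do not measure how firm the calls are. The calls of G6pc between genotypes on HFD and with the diet in LKO livers held throughout. Values that changed sign were at most 0.163 in size as reported. Gckr, with the diet in FF livers, was -0.056 with quantile normalization, -0.077 centred on the median and -0.00527 with the replicate block. Without single mice it ran from -0.10 to 0.17, Pck1 from -0.33 to 0.053, Fbp1 from -0.037 to 0.28 and Pfkfb1 from -0.0017 to 0.22. On CD between genotypes, Fbp1 ran from -0.26 to 0.0088, Gckr from -0.0044 to 0.21 and Pfkfb1 from -0.14 to 0.090, and the difference of diet responses of Slc37a4 from -0.051 to 0.29.

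Members called with the diet in FF livers numbered 0 centred on the median, where Pcx was 0.53, and 2 by adjusted p alone. With the diet in LKO livers and between genotypes on HFD they numbered 1 without the filter, with only the compared groups in the fit or with no moderation, where Pklr was lost (adjusted p 0.0524 to 0.0654 and 0.0648 to 0.0712). The difference of diet responses called 0 without the filter (G6pc adjusted p = 0.0544) or moderation (0.0531). With the replicate block 1 was called between genotypes on HFD, with Pklr at 0.0508. The cause was not tested. Without single mice the members called numbered 0 to 1 with the diet in FF, 1 to 2 in LKO, 0 on CD, 1 to 2 on HFD and 0 to 1 for the difference of responses.

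Over all genes, calls with the diet in FF livers were 732, and 1254 with a pseudocount of 0.1 and 2287 by adjusted p alone (605 to 802 without single mice). In LKO livers they were 141, and 272 with that pseudocount, 47 without the filter, 87 quantile normalized, 88 centred, 40 in the compared groups, 53 without moderation and 449 by adjusted p alone (17 to 237). On CD they were 25, and 12 without the filter and 6 without moderation (11 to 45). On HFD they were 230, and 152, 145 and 466 without the filter, without moderation and by adjusted p alone (132 to 318). For the difference of responses they were 271, and 169 without the filter, 411 rescaled and 167 without moderation (156 to 392). Higher and lower calls were 567 and 165 with the diet in FF livers but 410 and 236 centred, 107 and 34 in LKO livers but 40 and 48 centred, 10 and 15 on CD but 16 and 15 rescaled, 100 and 130 on HFD but 83 and 167 rescaled, and 105 and 166 for the difference of responses but 112 and 299 rescaled. Rescaling put the median of all genes at 0.14 with the diet in FF livers, against 0.07.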

Other observations

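Of 14 core clock and output genes, 12 were tested, and limma called none in the 4 pairwise comparisons. At an unadjusted p under 0.05 there were 4 with the diet in FF livers, 4 with the diet in LKO livers, 2 between genotypes on CD and 4 between genotypes on HFD, where 33.7%, 22.3%, 7.67% and 19.3% of all tested genes were. By adjusted p alone Per2 passed with the diet in FF livers, at -0.31 on the log2 scale (adjusted p = 0.0489), and is named because it was the only 1.

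Among the promoter windows of the other members, Gckr held TGTTTTG beginning at -83 from its start site, and Slc37a4 held TGACGT, the other strand of ACGTCA, beginning at -61 from 1 of its start sites. Markers of pancreas acinar cells summed to 2.18 to 15.7 RPKM and those of erythroid cells to 71.8 to 599.5 RPKM over the 18 livers, and their relation to the 9 genes was not tested. Besides Pklr, other members share bases with annotated genes. Lrfn4 lies within Pcx (3883 bases), Apex2 overlaps Pfkfb1 (1640 bases) and the antisense gene 1700112D23Rik overlaps Slc2a2 (28693 bases), each on the opposite strand, and Mir7085 lies within Slc37a4 (66 bases) on the same strand. Shared bases were counted over whole genes, introns included. Without strand, reads within the shared bases cannot be told apart, and for Mir7085 strand would not separate them.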
